A study of Mus musculus with 24 samples.

Results

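In mouse hematopoiesis, 1472 genomic elements were accessible in every bone marrow population profiled by ATAC-seq and were not called in either blood innate population, the monocytes and neutrophils. They made up 0.724% of the 203413 elements that were found in the 10 primary populations, and 7.61% of the 19352 elements called in all 8 marrow populations. Members were chosen from the peak calls themselves. A peak was kept when it overlapped by 1 bp a peak of the other library of its group, the kept peaks were merged over the primary groups, and an element was taken when all 8 marrow groups held a kept peak in it and neither MON nor NEU did. Presence in marrow and absence in blood are therefore descriptions of the rule and not findings. All 1472 members had a score in each of the 16 marrow libraries, because the rule requires it.

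ATAC-seq marks open chromatin by inserting sequencing adapters with the Tn5 transposase. The series holds 24 libraries of 12 groups, with 2 libraries per group. The 8 marrow groups came from adult C57BL6 bone marrow: LSK (lineage-negative, Sca1+ cKit+ cells, which hold the stem cells), CMP (the common myeloid progenitor), GMP and MEP (the progenitors of granulocytes and macrophages, and of megakaryocytes and erythroid cells), CFUE and ERY (erythroid colony-forming cells and erythroblasts), CFUMK (megakaryocyte colony-forming cells) and iMK (labelled as megakaryocytes, and called immature by the study). MON and NEU were monocytes and neutrophils from peripheral blood of adult C57BL6 mice, so that blood as a tissue and the mature innate cell type cannot be told apart in them. G1E is an erythroid-committed line without GATA1, and G1E-ER4+E2 is a clone of G1E in which a fusion of GATA1 to the estrogen receptor was activated by estradiol; neither line was used to choose the elements. Nothing in the labels ties the 2 libraries of a group to separate mice, so p-values measure the spread between libraries, which may be technical.

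Open chromatin at promoters and distal elements is where transcription factors meet regulatory DNA. GATA factors, often together with TAL1 at paired E-box and GATA words, are known as regulators of stem, erythroid and megakaryocytic genes, whereas PU.1 and C/EBP factors are known for myeloid genes. CTCF is known for binding at insulators and chromatin loop anchors. Monocytes and neutrophils arise from GMP and in blood are mature cells that mostly no longer divide.

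Members are represented here by 200-bp windows about their centres. Each pair was picked for high marrow scores among the members that hold a given word. The first pair holds GATA words (AGATAA or AGATAG or TGATAA or TGATAG, on either strand) in capitals. GATA member 1 lies in an intron of Rftn1, which encodes a lipid raft protein, at chr17:50020415-50020614, and GATA member 2 lies 6141 bp from the start of Cebpe, a transcription factor gene of late granulocyte maturation, at chr14:54705933-54706132.
GATA member 1: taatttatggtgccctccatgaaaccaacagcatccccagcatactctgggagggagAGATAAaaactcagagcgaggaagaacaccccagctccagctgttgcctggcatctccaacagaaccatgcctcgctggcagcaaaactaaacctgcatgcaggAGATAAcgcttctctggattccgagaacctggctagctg
GATA member 2: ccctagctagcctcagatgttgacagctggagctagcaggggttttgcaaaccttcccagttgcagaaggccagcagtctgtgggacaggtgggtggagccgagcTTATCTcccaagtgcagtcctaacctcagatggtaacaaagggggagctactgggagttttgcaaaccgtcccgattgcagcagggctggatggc
The next pair holds a CTCF word in capitals. CTCF member 1 lies 2532 bp from the start of Bsg, the basigin gene, at chr10:79712537-79712736, and CTCF member 2 lies 19001 bp from the start of Paqr9, at chr9:95540556-95540755.
CTCF member 1: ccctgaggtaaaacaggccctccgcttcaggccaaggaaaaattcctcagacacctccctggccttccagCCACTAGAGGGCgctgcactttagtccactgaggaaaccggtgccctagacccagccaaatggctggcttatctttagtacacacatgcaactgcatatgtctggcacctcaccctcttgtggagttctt
CTCF member 2: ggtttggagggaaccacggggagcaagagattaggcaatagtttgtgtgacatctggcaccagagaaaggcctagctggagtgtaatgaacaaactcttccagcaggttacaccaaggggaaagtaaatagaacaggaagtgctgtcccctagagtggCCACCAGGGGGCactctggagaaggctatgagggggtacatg
The last pair holds a KLF word (CCACACCC or CCCCACCC or CCGCACCC, on either strand) in capitals, as bound by the erythroid factor KLF1. KLF member 1 lies 31158 bp from the start of Dhrs3, a retinal reductase gene, at chr4:144949937-144950136, and KLF member 2 lies in an intron of Gse1 at chr8:120371796-120371995.
KLF member 1: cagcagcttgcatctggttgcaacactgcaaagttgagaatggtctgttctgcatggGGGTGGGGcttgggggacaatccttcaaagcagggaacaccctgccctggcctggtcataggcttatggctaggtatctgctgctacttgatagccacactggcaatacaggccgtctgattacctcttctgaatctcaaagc
KLF member 2: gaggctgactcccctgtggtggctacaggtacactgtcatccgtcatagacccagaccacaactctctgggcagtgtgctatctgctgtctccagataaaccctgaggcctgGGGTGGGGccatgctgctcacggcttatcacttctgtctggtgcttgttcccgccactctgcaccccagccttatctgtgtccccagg
All coordinates are 1-based in mm10 (GRCm38.p6), and all sequences are on the plus strand. A match to a word is a description of the sequence and not a binding site. Of all distal elements, 34.8% held a GATA word in a window of this length, 3.41% a CTCF word and 7.78% a KLF word. GATA member 1, GATA member 2 and both KLF members also held the paired E-box and GATA arrangement that is described with the motifs. The GATA members had no peak in any blood library. Both CTCF members and KLF member 2 each had a peak in 1 blood library, and KLF member 1 in 2, none of them reproducible.

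Promoters made up a share of the members between that of all elements and that of the elements called everywhere. Of the 1472 members, 674 (45.8%) lay within 1 kb of an annotated transcript start, against 69.8% of the 15789 elements called in all 10 primary groups and 23.0% of all elements. The share was 51.9% of the 1668 members under a stricter overlap between replicates and 62.5% of the 542 members from equal numbers of peaks per library. The number of promoter members was 446 when MON was called from replicate 1 alone. The 798 distal members comprised 424 in introns (53.1%), 323 between genes (40.5%) and 51 in exons (6.39%). The members had a median width of 373.5 bp, with a middle 50% of 264 to 549 bp, against a median of 425 bp for the elements of all 10 groups. Promoter members held a median of 9 CpG dinucleotides in the 200 bp about their centres, and promoters of all 10 groups held 14. The median distal member lay 11073 bp from the nearest transcript start, against 6677 bp for distal elements of all 10 groups and 10807 bp for all distal elements.

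The members were spread over the genome. The median distance between neighbouring members was 633842 bp, and 101 neighbouring pairs lay within 20 kb of each other. On the X chromosome, 58 of the 489 elements called in all 8 marrow groups were members (11.9%), and on chromosome 17 this share was 5.08%. Distance to the nearest reproducible peak of MON or NEU separated promoter from distal members. It had a median of 355.5 bp for promoter members and 13943 bp for distal members. A reproducible blood peak lay within 500 bp of 373 promoter members (55.3%) and of 60 distal members (7.52%). Many promoter members thus lay beside a blood peak, whereas most distal members did not, and 620 members of both kinds (42.1%) were more than 10 kb from any, against 48.1% of all 139319 elements closed in MON and NEU.

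The absence of a reproducible blood peak did not always mean the absence of any peak. A peak in a single blood library overlapped 464 members (31.5%) in MON replicate 1, 355 (24.1%) in MON replicate 2, 541 (36.8%) in NEU replicate 1 and 190 (12.9%) in NEU replicate 2. No blood library held a peak at 443 members, 1 library did at 557, 2 did at 425, 3 did at 45 and all 4 did at 2, where the peaks did not overlap those of the other library. Members with a peak in exactly 1 blood library lay just inside the rule, and their peak there had a median score percentile of 48.3 in MON replicate 1, 39.2 in MON replicate 2, 33.8 in NEU replicate 1 and 28.0 in NEU replicate 2. Just outside the rule were 1299 elements of the same marrow groups that were called in MON alone, with median percentiles of 65.2 and 60.4 in the MON libraries, and 792 called in NEU alone, with 61.7 and 46.2 in the NEU libraries. The number of members moved with these calls: it was 443 when no blood library was allowed a peak, 542 when each primary library was cut to its 84341 highest peaks, and 940 when NEU was called from replicate 1 alone.

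Each peak was deposited with a score that has no stated unit, and here a score of a member in a library is the highest of its reproducible peaks. The percentile of a score is its rank among all peaks of its library. Members had moderate scores in the marrow, with a median percentile of 72.1 over the 16 libraries (middle 50% 60.3 to 82.8), against 91.7 for the elements of all 10 groups. This was not particular to members. The elements of the same marrow groups called in MON and not NEU had a median of 72.8, and those called in NEU and not MON 74.9. Among the elements called in all 8 marrow groups, members made up 27.7% of the lowest of 10 classes by marrow score and 1 of the 1936 elements of the highest class. A weak element is more easily missed in a blood library, and the part of this in the choice of members was not tested. The median percentile of members in the 2 libraries of a group was 71.8 and 59.1 in LSK, 80.2 and 74.7 in CMP, 68.2 and 56.8 in GMP, 79.4 and 79.1 in MEP, 74.9 and 66.5 in CFUE cells, 68.9 and 64.3 in ERY, 79.6 and 79.9 in CFUMK and 57.5 and 60.4 in iMK. A percentile depends on the length of its list, and the libraries of different groups overlapped, as CFUE replicate 1 did with CMP replicate 2.

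**Figure D1:**
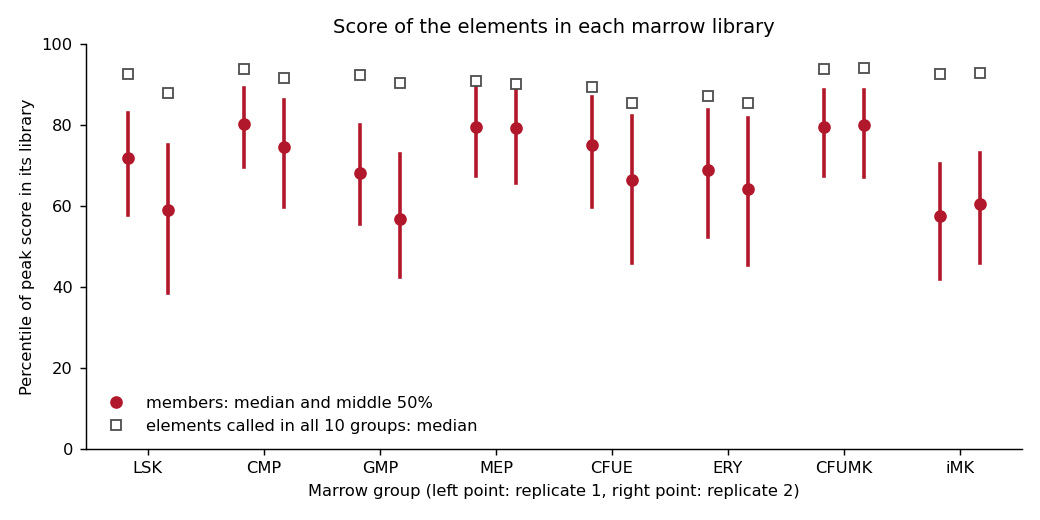
Percentile of the peak score within its library (vertical axis, percent) for the 8 marrow groups (horizontal axis, left point replicate 1, right point replicate 2). Filled points and bars are the median and middle 50% of the 1472 members, and open squares are the median of the elements called in all 10 primary groups; member medians lay between 56.8 and 80.2 and the squares between 85.4 and 94.0.

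Library facts bear on these values. The marrow libraries held 97760 to 230877 peaks. The MON lists held 163770 and 130555, and the NEU lists 108650 and 84341. Low scores came in whole multiples of a step in each library (within 0.0051 for at least 83.4% of the values), which gives a relative depth if all lists were scaled to the same total. On that assumption the blood libraries reached 54.3 to 65.2% of the depth of the deepest library, GMP replicate 1, and the marrow libraries 40.2 to 100%. By the library numbers, 7 marrow groups (842 to 856) were numbered apart from MON and NEU (1197 to 1200), and only LSK replicate 2 (1196) was numbered with the blood libraries; all members are called in it by the rule. Among the markers of the labelled types, a reproducible peak lay within 500 bp of a start for 23 of 26 monocyte markers in MON and for 15 of 28 neutrophil markers in NEU. Neither NEU library had a peak at Camp, Ltf, Ngp, Lcn2, Elane and Ctsg, genes of neutrophil granule proteins, or at Fpr1, Fpr2 and Retnlg. In iMK, peaks lay at 25 of 28 neutrophil markers and at 17 of 28 megakaryocyte markers, whereas in CFUMK they lay at 21 of the neutrophil and 22 of the megakaryocyte markers.

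The strongest members without a peak in any blood library included elements at Epor and Slc14a1, genes that are expressed in red cells. The Epor element (chr9:21962503-21962738) lay 57 bp upstream of the start of a shorter transcript of the erythropoietin receptor gene, in the first intron of the full-length transcript. It scored 21 and 16.5 in LSK, 62.5 and 54.4 in CMP, 37.1 and 19.6 in GMP, 57.1 and 53.7 in MEP, 130.6 and 107.7 in CFUE cells, 149.6 and 139.5 in ERY, 68.1 and 79.8 in CFUMK and 12.5 and 13 in iMK. The ERY and CFUE libraries were the highest and the iMK libraries the lowest, and these did not overlap. The intron element of Rftn1 (chr17:50020245-50020785), the member with the highest marrow score of all distal members without a blood peak, scored 46.7 and 24.5 in LSK, 97 and 82.6 in CMP, 10.3 and 8.03 in GMP, 70.8 and 72.3 in MEP, 271.7 and 236.8 in CFUE cells, 381.4 and 373.6 in ERY, 77.4 and 88.3 in CFUMK and 12.8 and 8.87 in iMK. The ERY libraries were the highest and the GMP and iMK libraries the lowest. It had no peak in G1E-ER4+E2 or G1E, unlike the Epor element, which was called in both lines.

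The other strong members of this kind were also highest in the CFUE and ERY libraries, whereas the lowest library differed between them. At promoters they lay at Crisp2 (chr17:40806501-40806965), a sperm protein gene, Rgl1 (chr1:152592207-152592922), which encodes an exchange factor of Ral GTPases, Slc14a1, the urea transporter of red cells, and the noncoding gene Gm43121 (chr3:100438437-100438995), 50478 bp from the start of Tent5c, a poly(A) polymerase gene. Away from promoters they lay near Cebpe, in an intron of the palmitoyltransferase gene Zdhhc19 (chr16:32509091-32509904), near the small GTPase gene Rap1a (chr3:105808540-105808793), 38424 bp from Pabpc1, the poly(A)-binding protein gene (chr15:36647916-36648267), and 54528 bp from the deubiquitinase gene Usp12 (chr5:146703716-146704123). All those named scored higher in CFUE and ERY than in CMP and GMP by limma with Benjamini-Hochberg adjustment, by log2 differences of 1.00 near Usp12 to 4.10 at Zdhhc19, and all of them scored lower in iMK than in CFUMK and lower in GMP than in CMP. The smallest of the differences between GMP and CMP was -0.82 ± 0.16 (SE) near Cebpe, where limma gave an adjusted p of 0.0012 after Benjamini-Hochberg adjustment; the largest among those named was -3.55 ± 0.21 at Slc14a1. The member near Cebpe scored 50.3 and 31.8 in GMP and 29.7 and 21.6 in iMK, against 64.4 and 61.2 in CMP and 72.8 and 95.6 in CFUMK. These members were picked for high marrow scores and no blood peak, and neither choice used a difference between marrow groups.

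**Figure D2:**
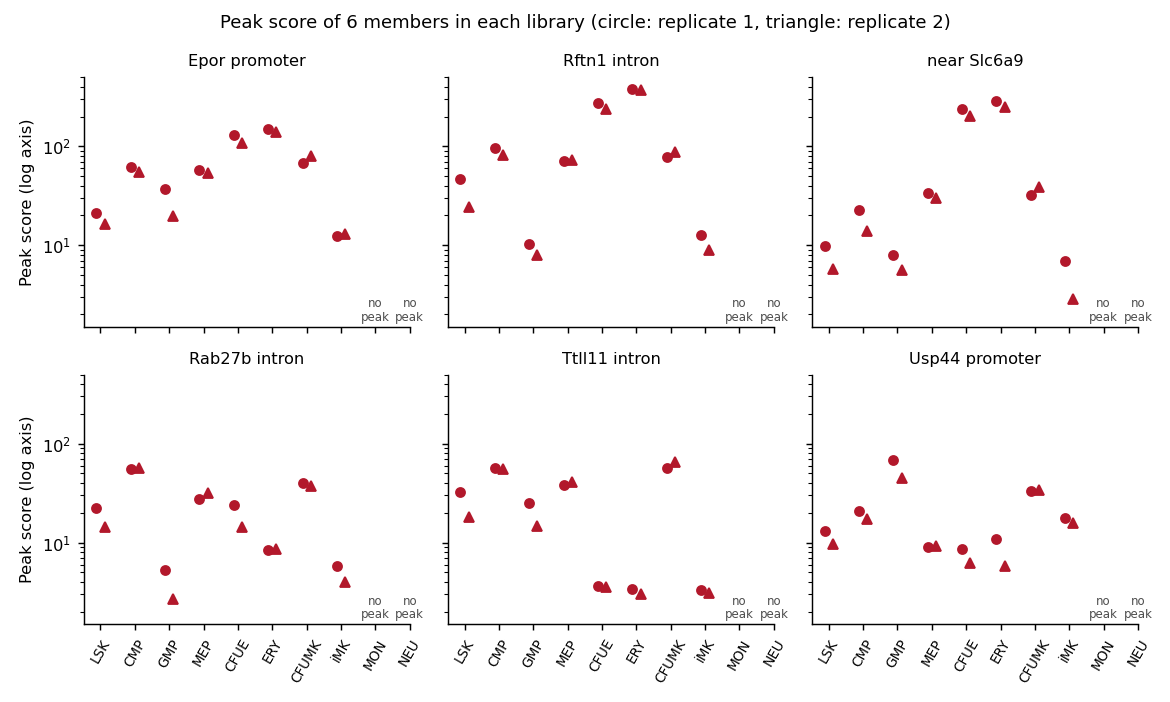
Peak score (vertical axis, log scale, no stated unit) of 6 members in each primary library (circle replicate 1, triangle replicate 2). The Epor, Rftn1 and Slc6a9 elements were highest in CFUE and ERY, the Rab27b element in CMP, the Ttll11 element in CFUMK, and the Usp44 element in GMP; none had a peak in MON or NEU.

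The first comparison asked whether elements not called in MON and NEU already scored differently in GMP, the progenitor of both, than in CMP. Members scored lower in GMP. Of the 1472 members, 503 fell and 45 rose, with a median log2 difference of -0.50 (limma on log2 scores, Benjamini-Hochberg adjusted p under 0.05). Over all 19352 elements fitted, 11.8% fell and 11.7% rose, and the median was -0.03. The fall was largely at distal members, of which 356 of 798 fell and 7 rose (median -0.73), and 147 of 674 promoter members fell and 38 rose (median -0.21). Distal elements of all 10 groups, which are called in both blood types, had 807 of 4761 fall and 195 rise (median -0.26). Elements of all 10 groups also had a higher median marrow percentile, 91.7 against 72.1 for members. Elements just outside the rule called in MON alone had median percentiles of 74.9 and 66.9 in GMP, against 80.3 and 74.7 in CMP. Those called in NEU alone had 74.6 and 65.7, against 81.1 and 75.2, and members 68.2 and 56.8, against 80.2 and 74.7. These sets were not tested against each other. Under quantile normalization the member median was -0.23. With it 384 members fell and 112 rose, which moved the share of rises among calls to 22.6%, against 8.21% with median centring. The number of falls was 322 without CMP replicate 2 and 328 without GMP replicate 1. Rises numbered 17 to 24 without a CMP or a GMP library and 84 without either LSK library. Marker starts moved with this comparison: the summed score over 28 neutrophil markers was 1119 and 694 in GMP, against 339 and 322 in CMP, with Ly6g, Fpr1, Fpr2 and Retnlg at no peak in either GMP library. The sum over 26 monocyte markers was 1278 and 789 in GMP, against 517 and 534 in CMP, and the part of these markers in the falls was not tested.

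Large falls in GMP lay in introns of Abcc4 and Rab27b. The intron element of Abcc4 (chr14:118551373-118552331), an exporter of nucleotides that is known from platelet dense granules, scored 3.75 and 2.68 in GMP, against 47.3 and 48.5 in CMP (log2 -4.09 ± 0.23 SE, limma with Benjamini-Hochberg adjusted p = 1.89e-10). Its other libraries scored 10.4 and 4.97 in LSK, 41.3 and 45.5 in MEP, 5.98 and 3.59 in CFUE cells, 5 and 5.16 in ERY, 31.5 and 35.6 in CFUMK and 3.03 and 2.69 in iMK, so that CMP, MEP and CFUMK stood apart from all others. The Rab27b element, 1678 bp from the start of a GTPase gene of dense granule secretion, scored 5.3 and 2.68 in GMP, against 55.9 and 56.6 in CMP, a log2 difference of -4.07 ± 0.23. Both elements held a GATA word and had no peak in any blood library.

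Few members rose in GMP, and the largest rises were smaller than the largest falls. The promoter of Usp44 (chr10:93833468-93833858), a deubiquitinase gene of the spindle checkpoint, scored 68.8 and 44.6 in GMP, against 21 and 17.3 in CMP (log2 1.37 ± 0.25 SE, limma with Benjamini-Hochberg adjusted p = 0.000826). It scored 13.2 and 9.78 in LSK, 9.1 and 9.31 in MEP, 8.57 and 6.24 in CFUE cells, 11 and 5.82 in ERY, 33.5 and 34.1 in CFUMK and 17.6 and 15.9 in iMK in the other groups, so the GMP libraries were the highest, and no blood library had a peak there. The intron element of Homer1 (chr13:93354922-93355469), a synaptic scaffold gene, scored 34.8 and 30.8 in GMP, against 10.7 and 10.9 in CMP (log2 1.43), and the promoter of Cnbd2 (chr2:156311870-156312284) scored 22.5 and 13.3 in GMP, against 5.25 and 5.91 in CMP (log2 1.46). The Usp44 window held a RUNX word (TGTGGT) and a PU.1 word (GAGGAAGT).

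The second comparison asked the same in the megakaryocytic line, of iMK against CFUMK. Members scored lower in iMK: 848 of 1472 fell and 42 rose, with a median log2 difference of -0.93 by limma, whereas over all elements fitted 18% fell and 24.9% rose, with a median of 0.12. Of distal members 565 of 798 fell and 3 rose (median -1.29), and of promoter members 283 of 674 fell and 39 rose (median -0.48). Elements just outside the rule called in MON alone had median percentiles of 68.4 and 71.1 in iMK, against 79.8 and 79.1 in CFUMK. Those called in NEU alone had 73.3 and 73.9, against 80.9 and 81.6, and members 57.5 and 60.4, against 79.6 and 79.9. These sets were not tested against each other. Under quantile normalization 594 members fell and 95 rose, with a median of -0.46 over the members and 0.05 over all elements. Without a single library 698 to 932 members were lower; rises numbered 15 to 19 without a CFUMK or an iMK library. Neutrophil marker starts moved with this comparison: the summed score over 28 neutrophil markers was 1296 and 1145 in iMK, against 558 and 545 in CFUMK, with Fpr1, Fpr2 and Elane at no peak in iMK. The sum over 28 megakaryocyte markers was 875 and 828 in iMK, against 745 and 753 in CFUMK, and 18 and 20 of these markers had a peak in the iMK libraries, against 23 in each CFUMK library; Gp1ba, a platelet receptor gene, had none in either iMK library and one in both CFUMK libraries. The sum over 26 monocyte markers was 1013 and 1116 in iMK, against 657 and 632 in CFUMK. The part of other cells in the iMK libraries in these falls was not tested, and a lower score in a population cannot be told apart from fewer cells with the element open. Requiring calls in the 7 marrow groups other than iMK, an alternative added after seeing the data, gave 1744 members.

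Large falls in iMK lay in an intron of Ttll11 and at the Crisp2 promoter. The Ttll11 element (chr2:35831199-35831828), in a tubulin-modifying enzyme gene, scored 3.29 and 3.09 in iMK, against 57.2 and 65.8 in CFUMK (log2 -4.19 ± 0.20 SE, limma with Benjamini-Hochberg adjusted p = 3.81e-11). Its other libraries scored 32.4 and 18.3 in LSK, 56.7 and 56 in CMP, 25 and 14.8 in GMP, 38.2 and 40.7 in MEP, 3.61 and 3.59 in CFUE cells and 3.37 and 3.04 in ERY, which puts CFUE, ERY and iMK below all others. The Crisp2 promoter scored 3.54 and 4.88 in iMK, against 69.4 and 78.1 in CFUMK (log2 -4.07), and, unlike Ttll11, 140.2 and 133.3 in CFUE and 140 and 129.6 in ERY.

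The largest rises in iMK were at promoters whose nearest blood peak was close by. The element at Neat1 (chr19:5844224-5845318), the long noncoding RNA of paraspeckles, scored 54 and 57.2 in iMK, against 22.6 and 21.1 in CFUMK (log2 1.42 ± 0.17 SE, limma with Benjamini-Hochberg adjusted p = 2.24e-06), and a reproducible blood peak lay 29 bp away. The Neat1 element itself also held a peak in MON replicate 1, with a score of 22.3, that was not reproducible. The promoter of Rars2 (chr4:34615069-34615928), the mitochondrial arginyl-tRNA synthetase gene, scored 16.4 and 17.2 in iMK, against 4.15 and 8.11 in CFUMK (log2 1.61), with a blood peak 58 bp away. The promoter element of Aggf1 (chr13:95374672-95375190) scored 18.6 and 17.5 in iMK, against 7.73 and 7.92 in CFUMK (log2 1.28), and its difference was -0.29 when the scores of all its peaks were summed.

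The 2 comparisons share no library. Of the 503 members lower in GMP than in CMP, 423 (84.1%) were also lower in iMK than in CFUMK, which is 49.9% of the 848 members lower there. Over all elements fitted, 1106 were lower in both, 48.6% of those lower in GMP and 31.7% of those lower in iMK. The shares lower in iMK already differed between these sets, with 57.6% of all members and 18% of all elements fitted. A larger overlap among members therefore does not show that the falls were more closely tied in them, which was not tested.

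**Figure D3:**
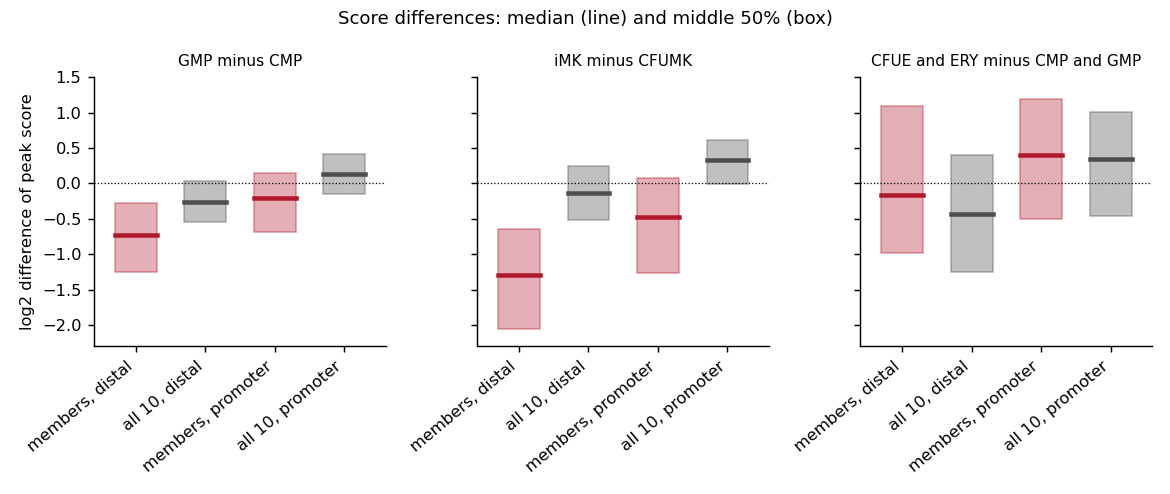
Difference of log2 peak score (vertical axis) for distal and promoter elements among the members (red) and among the elements called in all 10 primary groups (grey), in 3 comparisons of marrow groups; lines are medians and boxes the middle 50% of elements. Distal members had medians of -0.73 for GMP minus CMP, -1.29 for iMK minus CFUMK and -0.16 for CFUE and ERY minus CMP and GMP.

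In the erythroid line, CFUE and ERY against CMP and GMP, the members went both ways. By limma, 623 members rose and 508 fell, with a median log2 difference of 0.09, and over all elements fitted 43.1% rose and 35.7% fell, with a median of 0.13; under quantile normalization 766 members rose and 301 fell, with a median of 0.51 over the members and 0.07 over all elements. Of promoter members 338 of 674 rose and 186 fell (median 0.40), and of distal members 285 of 798 rose and 322 fell (median -0.16). The comparison shares the CMP and GMP libraries with the first, so the 2 are not independent.

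The largest rises in CFUE and ERY included an element near a gene of heme synthesis. The element 4262 bp upstream of Slc6a9 (chr4:117830049-117830438), the glycine transporter that supplies glycine for heme in erythroblasts, scored 238.1 and 200.1 in CFUE and 286.2 and 250.5 in ERY, against 22.5 and 14.1 in CMP and 8.04 and 5.59 in GMP (log2 4.61 ± 0.19 SE, limma with Benjamini-Hochberg adjusted p = 2.01e-14). It scored 9.73 and 5.77 in LSK, 33.7 and 30.3 in MEP, 32 and 39 in CFUMK and 6.96 and 2.89 in iMK, all far below the erythroid libraries. The element 20872 bp from the mitochondrial ubiquitin ligase gene March5 (chr19:37237736-37238387) scored 146.9 and 122.8 in CFUE and 170.8 and 177.2 in ERY, against 16.8 and 8.87 in CMP and 2.93 and 3.61 in GMP (log2 4.74). The element in an intron of a long Hmgb1 transcript (chr5:149136986-149137409) scored 124.8 and 118.7 in CFUE and 127.5 and 127.3 in ERY, against 12.2 and 11.8 in CMP and 6.76 and 2.56 in GMP (log2 4.28).

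The largest falls in CFUE and ERY left low scores there. The promoter of Ebf2 (chr14:67234387-67234657), a transcription factor gene of neurons and brown fat, scored 2.48 and 3.45 in CFUE and 2.44 and 2.91 in ERY, against 35.3 and 36.6 in CMP and 81.6 and 43.1 in GMP (log2 -3.91 ± 0.20 SE, limma with Benjamini-Hochberg adjusted p = 8.53e-13). The promoter of the phosphatase gene Ppm1h (chr10:122894457-122895398) scored 3.84 and 3.45 in CFUE and 2.79 and 2.64 in ERY, against 24.9 and 29.3 in CMP and 70.3 and 40.2 in GMP (log2 -3.45). An exon element of the noncoding gene Gm37194, 22007 bp from the olfactory receptor gene Olfr726 (chr14:50062569-50062775), scored 3.38 and 2.66 in CFUE and 2.67 and 2.38 in ERY, against 72.3 and 73.9 in CMP and 85.3 and 42 in GMP (log2 -4.45). Each of these had a peak with a score of 2.68 to 5.61 in 2 or 3 blood libraries, none of them reproducible.

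Sequence words were counted in the 200 bp about each centre on both strands; no word of a motif is contained in a word of another. Of the 798 distal members, 283 (35.5%) held a GATA word, against 21.9% of distal elements of all 10 groups, 27.7% of distal elements closed in CFUE and ERY alone and 34.8% of all distal elements. Windows moved by 10 kb held one in 32.7%, so the share of distal members was near that of their surroundings. A CTCF word lay in 115 distal members (14.4%; 54 members when NEU was called from replicate 1 alone), against 21.5% of distal elements of all 10 groups, 3.41% of all distal elements and 0.50% of moved windows. PU.1 words (GAGGAAGT) lay in 14 distal members (1.75%), near the 1.91% of distal elements of all 10 groups. Distal elements closed in CFUE and ERY alone held them in 8.02%, and all distal elements in 7.31%. RUNX words lay in 138 distal members (17.3%), near the 16.3% of distal elements of all 10 groups, against 24.7% of all distal elements. TAL1 E-box words (CAGATG or CAGCTG) lay in 240 distal members (30.1%), against 26.8% and 29.5%. KLF words lay in 58 (7.27%), close to the 7.39% of distal elements of all 10 groups.

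GATA and CTCF words varied with marrow score, in opposite directions. With the distal members in 4 classes of 199 or 200 by rising marrow score, the share with a GATA word was 29.0%, 25.1%, 34.7% and 53.0%, and the share with a CTCF word was 27.5%, 18.1%, 10.1% and 2.00%. Distal elements of all 10 groups in the same score ranges held GATA words in 25.2%, 24.7%, 22.6% and 20.5%, and CTCF words in 31.1%, 30.4%, 27.6% and 14.3%. The pair of a CTG and a GATA word 7 or 8 bases apart, chosen after values had been seen, lay in 54 distal members (6.77%), against 1.85% of distal elements of all 10 groups and 4.00% of all distal elements, and in 3.00%, 3.02%, 7.04% and 14.0% of the 4 classes. Absence from single blood libraries moved with the same words. Of distal members with no blood peak in any library 47.3% held a GATA word and 9.68% a CTCF word, and of those with a peak in 2 libraries 26.6% held a GATA word and 17.9% a CTCF word.

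**Figure D4:**
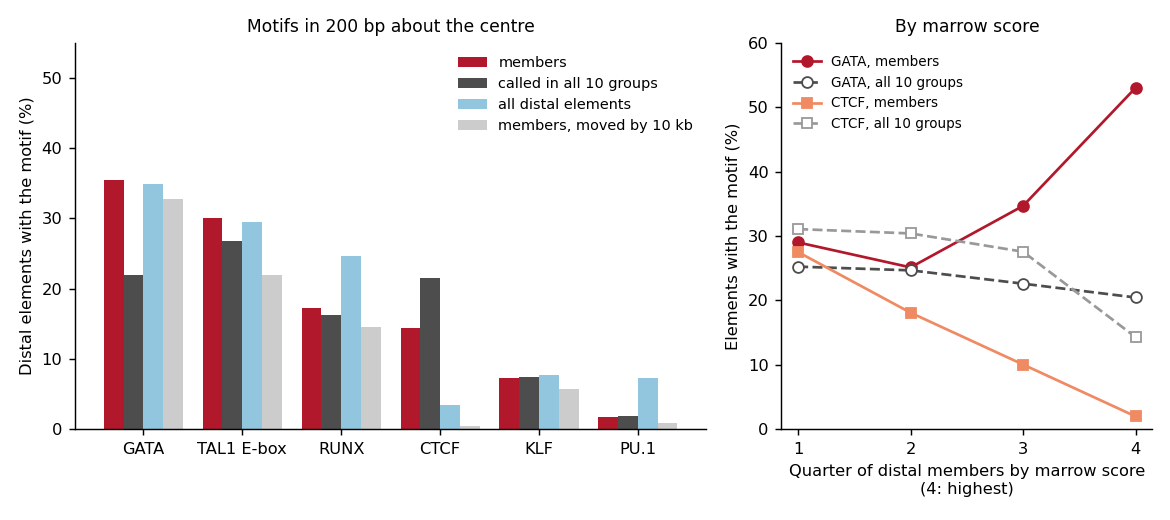
Left, share of distal elements (vertical axis, percent) that held each motif in the 200 bp about the centre, for members, elements of all 10 primary groups, all elements and member windows moved by 10 kb. Right, share with a GATA or CTCF word in 4 classes of distal members by rising marrow score, with elements of all 10 groups in the same score ranges; GATA words reached 53.0% and CTCF words 2.00% of the members in the highest class.

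Scores moved with the words too. Of the 283 distal members with a GATA word, 175 fell and 2 rose in GMP against CMP (median -0.99), and of the 515 without it 181 fell and 5 rose (median -0.60). In iMK against CFUMK, 232 with a GATA word fell (median -1.57), and without it 333 fell and 3 rose (median -1.11). In CFUE and ERY against CMP and GMP, 126 with a GATA word rose and 98 fell, and without it 159 rose and 224 fell. Of the 115 distal members with a CTCF word, 25 fell in GMP and 62 in iMK. The differences between these classes of members were not tested.

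In most of the words searched, promoter members lay nearer to all promoter elements than to the promoters called in all 10 groups. SP words (GGGGCGGG) lay in 71 of 674 promoter members (10.5%), against 19.3% of promoters of all 10 groups and 9.72% of all promoter elements. ETS words (CCGGAAGT) lay in 0.59% of promoter members, against 4.94% of promoters of all 10 groups and 1.67% of all promoter elements, and NRF1 words (GCGCATGC) in 0.59%, against 3.36% and 1.30%. NF-Y words lay in 6.53% of promoter members, against 16.3% of promoters of all 10 groups and 8.87% of all promoter elements. GATA words lay in 131 promoter members (19.4%), against 11.9%, and RUNX words in 88 (13.1%), against 8.45%. Of all promoter elements, 20.6% held a GATA word and 14.1% a RUNX word. PU.1, C/EBP and TAL1 E-box words lay nearer to the promoters of all 10 groups. PU.1 words lay in 5 promoter members (0.74%), against 1.79% of promoters of all 10 groups and 3.55% of all promoter elements. C/EBP words lay in 2 (0.30%), against 0.50% and 0.94%, and TAL1 E-box words in 133 (19.7%), against 16.4% and 23.2%.

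The genes whose promoters closed in blood were few. Of 21911 protein-coding genes, 634 had a member within 1 kb of a start, and 152 of these (0.694% of all genes) had no reproducible blood peak within 500 bp of any start. Of 39 erythroid markers, 5 were among them: Epor, Ank1, Aqp1, Trim58 and Sox6. The rule itself favours this list, because a member needs calls in CFUE and ERY. In each of these, 38 of the 39 erythroid marker starts were called, against 10377 in CFUE and 10143 in ERY of all 21911 genes. The element at an internal start of Ank1 (chr8:23034884-23035525), the ankyrin gene of the red cell membrane skeleton, scored 5.58 and 5.13 in LSK, 21 and 13.6 in CMP, 8.87 and 5.24 in GMP, 37.3 and 39.1 in MEP, 115.4 and 109.8 in CFUE cells, 118.7 and 124.5 in ERY, 37.9 and 38.3 in CFUMK and 4.55 and 4.48 in iMK. It followed the erythroid order, with CFUE and ERY above all others. The promoter of Aqp1 (chr6:55335945-55336540), the red cell water channel gene, scored 6.4 and 6.05 in GMP and 6.83 and 5.68 in iMK, against 57.8 and 47.8 in CMP and 60.1 and 70.7 in CFUMK. The promoter of Trim58 (chr11:58640225-58640890), a ubiquitin ligase gene of maturing erythroblasts, scored 68.9 and 68 in ERY and 38 and 34.1 in CFUE and between 6.07 and 23.6 in the other marrow libraries.

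Other lists held few closed promoters. Of 48 DNA replication genes, Tyms and Tk1, which make thymidylate for DNA synthesis, were closed. The Tk1 promoter (chr11:117825765-117826023) scored 69.6 and 58 in CFUE and 55.2 and 52.9 in ERY, against 19 and 15.7 in CMP and 18.5 and 15 in GMP (log2 1.93 ± 0.15 SE, limma with Benjamini-Hochberg adjusted p = 2.6e-10), and no blood library had a peak there. Of 38 stem and progenitor regulators, Myb, which encodes a factor of progenitor growth, had an upstream member (chr10:21160696-21161771) that scored 7.84 and 9.76 in iMK, against 40.3 and 40.5 in CFUMK. A member needs calls in CFUE and ERY, in each of which 2 of 28 neutrophil, 2 of 26 monocyte, 2 of 27 lymphoid and 9 of 28 megakaryocyte marker starts were called, so the rule itself keeps these lists low. Of the neutrophil markers only Prtn3, the proteinase 3 gene of primary granules, was closed, with 18.4 and 12.6 in GMP and 17.6 and 12.1 in CMP, although single peaks lay there in MON replicate 1 and NEU replicate 1. None of 62 mitosis and cell cycle genes, of which 60 were called in CFUE and 60 in ERY, had a closed promoter, and 8 of them, Mad2l1, Kif4, Cenpe, Nuf2, Ect2, Prc1, Ccne2 and E2f8, had a member at a promoter with a blood peak near a start, as did 482 of all 21911 genes (2.20%).

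Few genes had several members. With each gene extended by 20 kb at both ends, 1912 of 21938 protein-coding genes had at least 1 member and 23 had 3 or more. Sox6, a transcription factor gene that represses embryonic globin, had 5 members of the 6 elements called there in all 8 marrow groups, of which 3 lay at its starts and had marrow scores of at most 20.4. Each of these 3 also had a peak in NEU replicate 1, with scores of 4.26, 13.4 and 3.63, and the first and second had one in MON replicate 2 (2.8 and 2.94). None of these blood peaks was reproducible. The intron members of Sox6 were higher: the element 47362 bp downstream of a start scored 65.2 and 78.2 in MEP and 11 and 6.17 in GMP. Pcdh7, a protocadherin gene, had 5 of 5, and 4 of these lay within 3905 bp before its start and scored at most 7.22 in every CFUE and ERY library. Its intron member (chr5:57781944-57782288) with a GATA word scored 11.2 and 8.27 in GMP, against 78.8 and 83.7 in CMP. Gse1 had 4 members of 14 such elements and Ank1 3 of 5, and the 10 of 93 at Gm20388, a readthrough model of 4435 kb, included those of Gse1 and a pair upstream of Cbfa2t3, the gene of the TAL1 partner ETO2. The farther of these (chr8:122719551-122720046) scored 207.3 and 180.3 in CFUE and 260.3 and 268.3 in ERY, against 54.5 and 41.6 in CMP and 19.7 and 9.9 in GMP. At Bub1b, the spindle checkpoint kinase gene, 3 members of 6 such elements lay between it and Pak6 and scored 64.5 to 144.2 in CFUE and ERY, whereas CMP and GMP libraries had 5.30 to 22.1.

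The GATA1 cell lines were not used to choose the members. Both derive from an erythroid-committed line. A member needs calls in CFUE and ERY, so the rule itself favours peaks in these lines. A peak overlapped 60.4% and 63.1% of members in the G1E-ER4+E2 libraries, against 41.6% and 46.4% in the G1E libraries. The mean was 61.8 ± 1.92% in G1E-ER4+E2 and 44.0 ± 3.36% in G1E (SD, n = 2 libraries each), and the difference of 17.7 percentage points was larger than the spread between libraries. An exact two-sided permutation test gave p = 0.333, the smallest that 2 against 2 libraries allow. The G1E-ER4+E2 lists held 62408 and 70306 peaks and the G1E lists 52720 and 58011. With 52720 peaks in each the shares were 53.5% and 53.6% in G1E-ER4+E2, against 41.6% and 43.2% in G1E, a difference of 11.1 points. With the full lists, where members differed by 17.7 points, the difference over elements of all 10 groups was 10.7 points. It was 2.29 points over elements closed in CFUE and ERY alone and 3.36 points over all elements. A large difference was not particular to members. Elements just outside the rule called in MON alone had shares of 62.4% and 68.2% in G1E-ER4+E2, against 42.0% and 47.2% in G1E. Those called in NEU alone had 62.6% and 66.7%, against 37.0% and 50.1%. Equal peak numbers were applied to the members only.

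**Figure D5:**
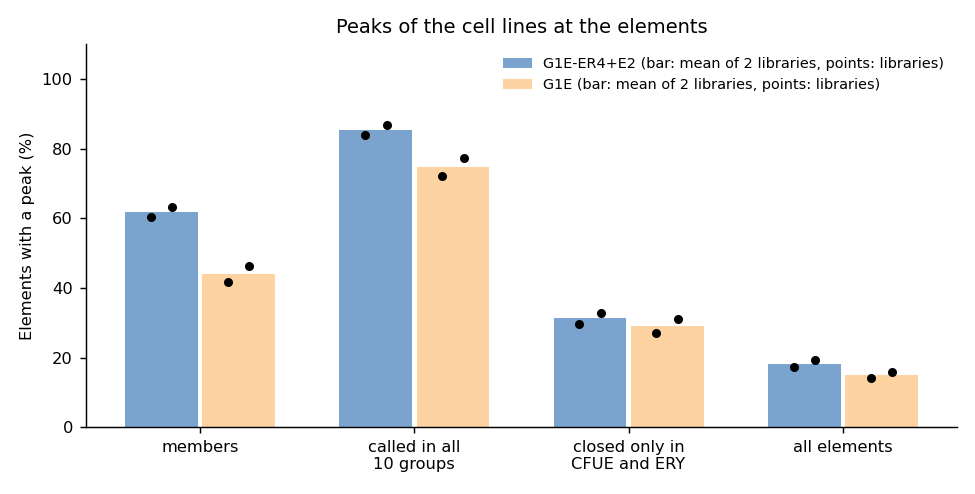
Share of elements with a peak in the GATA1 lines (vertical axis, percent) for 4 sets of elements; bars are means of 2 libraries and points the libraries. Members had a peak in 60.4% and 63.1% in G1E-ER4+E2 and in 41.6% and 46.4% in G1E.

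Reproducible peaks gave the same order. They lay at 824 members (56.0%) in G1E-ER4+E2 and at 552 (37.5%) in G1E. Over all elements, 15.6% were called in G1E-ER4+E2 and 12.7% in G1E. Both lines were called at 518 members, G1E-ER4+E2 alone at 306, G1E alone at 34 and neither at 614. Among distal members with a GATA word, 164 of 283 (58.0%) were called in G1E-ER4+E2 and 131 (46.3%) in G1E, and among the 515 without it 239 (46.4%) were called in G1E-ER4+E2 and 134 (26.0%) in G1E. Distal members with a CTCF word were called least, 36 of 115 (31.3%) in G1E-ER4+E2 and 11 (9.57%) in G1E. The Gse1 intron members at chr8:120288532-120288806 and chr8:120293509-120294304 were called in G1E-ER4+E2 and not in G1E, with scores of 36.9 and 53.4 at the second.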

How the data were processed

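ATAC-seq peak lists of 24 libraries (12 groups, 2 libraries each) were analysed, with groups taken from the labels. As the paper's methods and the labels' tool lists state, reads were trimmed, aligned to mm10 with Bowtie 0.12.8 and handled with SAMtools and bedtools, mitochondrial reads were removed, and peaks were called with HOMER on each library. The authors deposited a score for each peak without a name or unit; the fourth column was used, and the fifth was an alternative. No list of artefact regions was applied, reads were not used here, and depth in reads is therefore unknown from these files.

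Elements were called and merged as described. Scores were the highest of the reproducible peaks, on the log2 scale with no pseudocount, centred on the median of each library over 19352 elements. limma 3.58.1 (R 4.3.3; trend and robust variance) was fitted to 16 marrow libraries with a mean for each of 8 groups, and p-values were adjusted by Benjamini-Hochberg at 0.05, two-sided. The fit was tested on simulated data. Alternatives were another score, normalization, variance model and peak overlap, stricter absence in blood, equal peak numbers, and each library left out. Promoters lay within 1 kb of a transcript start in GENCODE M21; other elements were distal. Motif words were searched in 200 bp of GRCm38.p6.

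The elements, gene lists and tests were chosen with earlier results of these data known. Named elements were the 6 promoter and 6 distal members with the highest marrow score and no blood peak, the 3 largest rises and falls per comparison, members of the 8 genes with the most members, and up to 4 closed promoters per list; 16 lists held 556 genes, of which 555 matched. Of the closed erythroid promoters, Sox6 is described among the genes with the most members. A few items that this rule names are not reported here.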

Additional observations from a re-analysis of the deposited data

How the results depend on the processing

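Calls and counts depended on how strictly absence in blood was read. With no peak allowed in any MON or NEU library there were 443 members, 164 promoters, 132 distal with a GATA word and 27 with a CTCF word, and 267 called in G1E-ER4+E2 and 190 in G1E. With the 84341 highest peaks of each primary library these were 542, 339, 77, 23, 383 and 295. A stricter overlap between replicates, relative to peak width, gave 1668 members. Leaving out a library gave 940 (without NEU replicate 2) to 1988 members, 446 (without MON replicate 2) to 876 promoters, 198 to 416 GATA members, 54 (without NEU replicate 2) to 151 CTCF members, 562 to 1098 called in G1E-ER4+E2 and 385 to 733 in G1E. GATA words anywhere in the element lay in 435 distal members. For GMP against CMP, members called lower were 96 above the median score and 322 to 652 without a library; those called higher were 112 under quantile normalization, 27 with summed scores, 9 above the median score, 84 without both LSK libraries and 17 to 84 without a library. For iMK against CFUMK, 130 were lower above the median score and 698 to 932 without a library, and 95, 21 and 1 were higher under quantile normalization, with summed scores and above the median score, and 15 to 61 without a library. For CFUE and ERY against CMP and GMP, 301 were lower under quantile normalization and 32 above the median score, 105 were higher above the median score, and without a library 468 to 540 were lower and 581 to 644 higher. Above the median score means a mean log2 score over the 16 libraries, before centring, above its median over the elements; it includes 149 members, so those counts come from fewer elements, and the compared libraries enter that score. The cell line difference was 15.4 to 20.1 points without a library. Of 411 alternatives over 18 named differences 410 kept direction and call, and the Aggf1 element turned to -0.29 with summed scores. The fifth column and leaving out both iMK libraries, added after seeing the data, gave 499 and 501 members lower in GMP. The labels give no replicate numbers. The titles of 7 marrow groups hold 2 runs of consecutive library numbers; the labels do not say what a run marks, and the deviations of the same run correlated by -0.10 to 0.20 over 21 pairs of groups across elements, with 3 pairs over 0.1. A replicate block by run, without LSK and added after seeing the data, gave 659 members lower and 84 higher in GMP, 936 and 63 in iMK, and 541 lower and 643 higher in CFUE and ERY; without LSK and without the block these were 651, 84, 932, 62, 540 and 643.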

Other observations

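Members also lay beside genes of chromosome structure, where the promoter itself stayed open in blood. Of 26 chromosome structure genes, 5 had a member within 1 kb of a start and a reproducible blood peak within 500 bp of a start, against 482 of all 21911 protein-coding genes (2.20%): Rad21 of cohesin, Ncapd2, Ncapg and Ncaph2 of condensin, and Smchd1, which acts in X inactivation. Of 48 DNA replication genes, Dbf4, the activator of the CDC7 kinase, had such a member beside the closed Tyms and Tk1. Of 24 cholesterol synthesis genes none had a member at a promoter. The rule itself favours the chromosome structure list, because a member needs calls in CFUE and ERY. In each of these, 24 of its 26 genes were called, against 10377 in CFUE and 10143 in ERY of all 21911 genes. Its share of 19.2% was the highest of the 16 lists and was not tested.

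These peak lists show presence and score, not reads, and an element without a peak is not shown to be without reads. Tissue, maturity and library numbering separate MON and NEU from 7 of the marrow groups and cannot be told apart; 2 libraries per group limit every test. Elements were set beside genes by position, which does not show regulation.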
